A study of Homo sapiens with 4 samples.

Results

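Ubiquitin-conjugating enzymes (E2 enzymes, most with symbols that start with UBE2) and ubiquitin-specific proteases (USPs, the main family of deubiquitinases) were followed in maps of H3K27ac, the histone H3 acetylation found at active enhancers and promoters. The members were the rows of 4 deposited region tables whose gene name starts with UBE2, or with USP and a digit. They comprised 253 of 45672 regions and 65 of 13171 gene names, of which 28 were UBE2 symbols with 112 regions and 37 were USP symbols with 141 regions.

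The assay was CUT&Tag, which tethers a transposase through an antibody to the marked chromatin and sequences the DNA cut there. The cells were Kasumi-1, a human acute myeloid leukemia cell line that carries the RUNX1::RUNX1T1 fusion. The sgNT group (labelled wild type) and the sgSETD8 group (labelled SETD8 knockout, made with CRISPR/Cas9) had 2 libraries each, from 100000 cells per library. No other agent was named, and whether the knockout cells were a clone or a pool is not given in the sources used here. SETD8, whose gene symbol is KMT5A, monomethylates histone H4. The tables formed 2 pairs by the style of their region identifiers, a dense pair with 15149 sgNT and 18061 sgSETD8 regions and a sparse pair with 5186 and 7276, and the sgNT table of the sparse pair is named for the cell line alone. The members held 92 and 98 regions of the dense tables and 29 and 34 of the sparse tables, here and below in the order sgNT, sgSETD8.

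E2 enzymes take activated ubiquitin from an E1 enzyme and, with an E3 ligase, pass it to a substrate, and the E2 often sets which type of chain is built. USPs cut ubiquitin from substrates, and several of them act on histones H2A and H2B, on p53 and its ligase MDM2, on DNA repair proteins or on damaged mitochondria. Many of these genes are expressed in most cell types, so an acetylated region near one of them is not a mark of a lineage.

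Not every member is an enzyme of these families. USP6NL meets the naming rule but encodes a GTPase-activating protein of RAB proteins. UBE2E2-AS1, UBE2Q1-AS1, USP12-AS1 and USP3-AS1 are antisense RNAs, and UBE2NL is listed as a transcribed pseudogene. In RefSeq (GRCh38.p14), which held 64 of the 65 symbols, 25 of 36 protein-coding UBE2 genes and 35 of 52 protein-coding USP genes outside the USP17L copies had a region in at least 1 table, and 0 of 25 USP17L copies had one. UBE2C and UBE2S, the E2 pair of the anaphase-promoting complex, and UBE2A and UBE2B, the E2 enzymes of histone H2B ubiquitination, were among the genes with no region assigned to them in any table.

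The start sites of several members lay inside a region in one dense table and outside all regions in the other. The sequences before 6 member starts are shown, while the comparison of starts itself used positions and no sequence. The 6 are USP16, USP19 and UBE2E1 (inside a region in dense sgSETD8 only) and USP34 (dense sgNT only), with USP4 and UBE2K (inside in both dense tables) beside them. Each sequence is the 250 bases before the RefSeq start in GRCh38.p14, written 5′ to 3′ on the strand of the gene. The positions are chr21:29024418-29024667 (plus strand) for USP16, chr3:49120824-49121073 (minus) for USP19, chr3:23805705-23805954 (plus) for UBE2E1, chr2:61471088-61471337 (minus) for USP34, chr3:49340054-49340303 (minus) for USP4 and chr4:39697886-39698135 (plus) for UBE2K. Capitals mark matches, on either strand, to 3 of the 5 motifs searched: ETS (CCGGAAG), the GC box (GGGCGG) and RUNX (TGTGGT).
USP16: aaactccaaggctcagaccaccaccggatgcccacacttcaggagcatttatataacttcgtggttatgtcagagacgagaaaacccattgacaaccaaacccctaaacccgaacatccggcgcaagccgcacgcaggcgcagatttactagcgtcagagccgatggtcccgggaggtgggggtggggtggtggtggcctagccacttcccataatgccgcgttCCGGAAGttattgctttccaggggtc
USP19: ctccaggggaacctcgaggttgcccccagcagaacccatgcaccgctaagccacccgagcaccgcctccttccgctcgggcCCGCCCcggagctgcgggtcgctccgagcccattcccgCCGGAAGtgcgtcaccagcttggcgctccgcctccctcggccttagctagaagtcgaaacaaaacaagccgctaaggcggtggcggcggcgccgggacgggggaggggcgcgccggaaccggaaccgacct
UBE2E1: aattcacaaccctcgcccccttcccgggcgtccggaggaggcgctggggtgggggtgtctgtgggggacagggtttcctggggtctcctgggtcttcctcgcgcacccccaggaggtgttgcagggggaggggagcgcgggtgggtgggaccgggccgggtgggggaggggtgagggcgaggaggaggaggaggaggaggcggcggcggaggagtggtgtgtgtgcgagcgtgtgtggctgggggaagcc
USP34: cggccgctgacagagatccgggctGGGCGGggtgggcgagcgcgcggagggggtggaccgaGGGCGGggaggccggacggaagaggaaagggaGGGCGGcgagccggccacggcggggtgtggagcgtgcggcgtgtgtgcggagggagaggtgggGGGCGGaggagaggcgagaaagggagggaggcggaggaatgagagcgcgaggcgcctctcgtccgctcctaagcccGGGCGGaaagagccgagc
USP4: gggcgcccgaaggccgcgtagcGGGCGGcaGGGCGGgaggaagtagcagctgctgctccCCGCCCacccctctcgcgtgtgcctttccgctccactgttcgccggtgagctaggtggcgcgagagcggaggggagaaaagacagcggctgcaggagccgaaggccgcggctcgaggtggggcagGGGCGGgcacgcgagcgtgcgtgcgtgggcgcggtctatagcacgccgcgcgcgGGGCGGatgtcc
UBE2K: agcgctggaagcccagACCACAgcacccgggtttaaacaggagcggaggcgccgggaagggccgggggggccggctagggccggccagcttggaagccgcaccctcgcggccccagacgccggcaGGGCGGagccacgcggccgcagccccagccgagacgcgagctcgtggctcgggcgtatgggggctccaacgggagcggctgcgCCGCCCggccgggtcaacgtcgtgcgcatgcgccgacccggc

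All 5 motifs were searched on both strands of this window in the 68 protein-coding UBE2 and USP genes that the RefSeq promoter table holds and in all its 15842 protein-coding windows. Of the 68 genes, 51 had a region in at least 1 table and 17 had none. The GC box GGGCGG was present in 79.4% of UBE2 and USP windows and 56.0% of all windows, and the median GC content was 71.0% and 62.4%. The ETS letters CCGGAAG were present in 19.1% of UBE2 and USP windows and 11.8% of all. The RUNX letters TGTGGT were present in 4.41% and 8.89%, and the CCAAT box letters CCAAT in 29.4% and 34.5%. The AP-1 letters TGANTCA were in 0 of the 68 windows and in 5.04% of all. Among the printed windows, USP34 and USP4 each held 5 GC boxes, UBE2K held 2 GC boxes and 1 RUNX match, USP19 held 1 ETS match and 1 GC box, USP16 held 1 ETS match at bases 26 to 20 before the start, and UBE2E1 held none of the 5. A match is a string of letters and not a measured binding site.

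Several facts of the tables bear on every value that follows. The tables give a signal for each stitched region (neighbouring peaks joined into one), but no read counts, so the depth is unknown. The sum of region lengths over all genes was 132843 and 152786 kb in the dense pair and 7754 and 6889 kb in the sparse pair. With 2 tables in each group the smallest exact two-sided permutation p is 0.333, so no p-value is given, and the 95% Clopper-Pearson intervals cover counting error only. The 2 tables of a pair have no replicate error between them, and differences are read against the same measure over all genes or regions. KMT5A itself had 1 region in each dense table, at rank 3224 with a density of 0.521 signal units per base in sgNT and at rank 3326 with 0.475 in sgSETD8, and it had none in the sparse pair. H3K27ac at the gene does not check the knockout. All 12 genes of a myeloid progenitor list had a dense region.

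In the dense pair most members were marked in both groups. Of 61 members with a dense region, 55 (90.2%) had regions in both tables, against 68.1% of all genes. UBE2L6, USP14, USP19 and USP31 had a region in sgSETD8 only, which is 4 members or 6.56%, against 20.5% of all genes. UBE2E3 and USP54 had one in sgNT only, which is 2 members or 3.28%, against 11.4% of all genes. The share of members listed in 1 group was below that of all genes in both directions, and member regions were longer than others, with a median of 8079 bp in sgNT and 8766 bp in sgSETD8 against 1515 and 1499 bp over all regions.

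The 6 members listed in 1 dense table were mostly short, weakly ranked regions. USP19, a deubiquitinase anchored in the endoplasmic reticulum, had the best-ranked of them, a single peak of 4316 bp at rank 4550 with a density of 0.976. USP31 had a region of 2522 bp at rank 8918, and UBE2L6, the E2 of the ubiquitin-like protein ISG15, had one of 741 bp at rank 11624. USP14, a deubiquitinase bound to the proteasome, had one of 439 bp at rank 16015. UBE2E3 had a region of 9388 bp at rank 5587 in dense sgNT, and in the sparse pair a region of 279 bp at rank 7108 in sgSETD8 only. The 2 pairs thus placed UBE2E3 in opposite groups, and the sparse region lay before the gene start while the dense one lay in the gene.

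The sparse pair listed 35 members. In 15 (42.9%) it was in sgSETD8 only, against 45.9% of all genes, and in 9 (25.7%) it was in sgNT only, against 28.8% of all genes. The remaining 11 had regions in both: UBE2E1, UBE2E2, UBE2E2-AS1, UBE2H, UBE2J1, UBE2Q2, USP4, USP15, USP25, USP35 and USP47, and the same 11 also had regions in both dense tables. UBE2QL1, UBE2T, UBE2NL and USP49 had a region only in sparse sgSETD8, at densities of 1.35, 0.928, 0.595 and 0.724. The shares of members listed in 1 group were near those of all genes, and 8 of the 34 sparse sgSETD8 member regions were as short as the shortest region of that table (274 bp).

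The share of member regions that came from the sgSETD8 table was 51.6% (interval 44.2 to 58.9%) in the dense pair, against 54.4% of all regions. For the sparse pair it was 54.0% (40.9 to 66.6%), against 58.4%. The mean over pairs was 52.8 ± 1.69% (SD, n = 2 pairs), and both intervals included the share of all regions. By position, 12 of 92 dense sgNT member regions (13.0%, interval 6.93 to 21.7%) had no overlapping region in dense sgSETD8, against 22.7% of all regions. In the other direction 23 of 98 dense sgSETD8 member regions (23.5%, 15.5 to 33.1%) had none in dense sgNT, against 34.0% of all. Of the sparse regions, 25 of 29 sgNT regions (86.2%) had no counterpart, against 79.1% of all, and 30 of 34 sgSETD8 regions (88.2%), against 85.1% of all.

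The members' regions made 135 separate loci over the 4 tables. Only regions assigned to members were counted. By that count 47 loci were in both dense tables and neither sparse table. Another 22 were in dense sgSETD8 alone, 15 in dense sgNT alone, 22 in sparse sgSETD8 alone and 3 in sparse sgNT alone. A locus counted as alone can be covered in another table by a region assigned to another gene. In the dense pair this held for sgNT loci at UBE2H (17122 bp), USP3 (11214 bp) and USP6NL (568 bp). It also held for sgSETD8 loci at UBE2D3 (9682 bp) and USP34 (948 bp). By the same count, the pattern of both sgSETD8 tables without either sgNT table occurred at 0 loci, and so did the reverse pattern. The pairs pointed to opposite groups at 3 loci, at UBE2E1, UBE2V1 and USP16, which were in dense sgSETD8 and sparse sgNT only. Of the sparse sgNT regions, 24 of 29 (82.8%, against 71.2% of all) overlapped a dense sgNT region and 27 of 29 (93.1%, against 74.5%) a dense sgSETD8 region. Of the sparse sgSETD8 regions, 12 of 34 (35.3%, against 24.7% of all) and 13 of 34 (38.2%, against 26.3%) did. By the regions assigned to members, no locus was thus called in a group-specific way in both pairs. With regions of any gene counted, a sparse sgSETD8 region at USP35 (344 bp) overlapped a dense sgSETD8 region and none in either sgNT table. The same counts over all loci of the series are not given, and the sparse tables held few member regions. Over all genes the sgSETD8 table listed more regions than the sgNT table in both pairs. The 0 is therefore not read as a trait of these genes.

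The length covered per gene differed between the dense tables in both directions. It counts only the regions assigned to the gene, so bases that a table covered under another gene name are left out. Where neighbouring peaks were joined, the bases between them are counted too, so the length depends on the joining. The members covered 1476 kb in sgNT and 1716 kb in sgSETD8, and of the 55 members with regions in both, 35 covered more bases in sgSETD8 and 20 fewer, with a median log2 ratio of 0.35 against 0.19 over all genes. More than 2-fold more bases were covered at 12 of the 55, against 26.1% of all 7376 genes with regions in both. More than 2-fold fewer were covered at 7, against 13.2% of all genes. The direction over members was that of all genes, and in the sparse pair the members covered 33.0 kb in sgNT and 17.6 kb in sgSETD8.

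**Figure D1:**
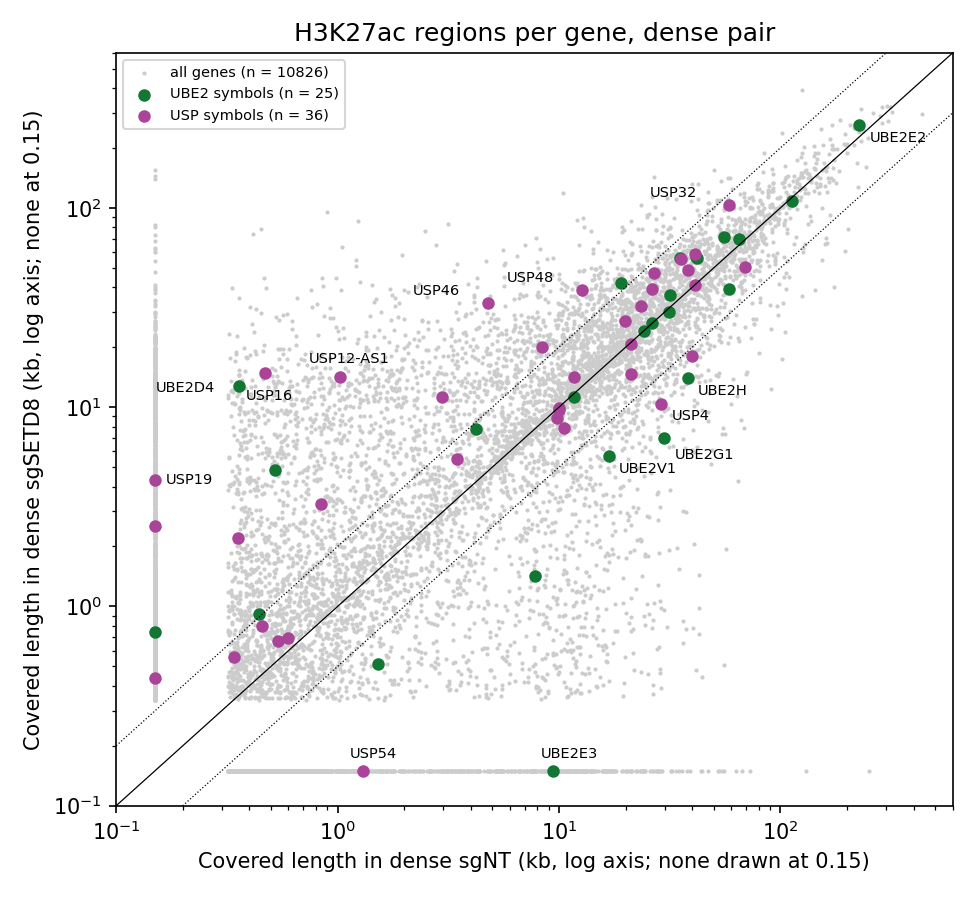
Length covered by the regions assigned to each gene (kb, log axes) in dense sgNT (horizontal) and dense sgSETD8 (vertical). All genes are grey, UBE2 symbols green and USP symbols purple. The solid line marks equal length and the dotted lines 2-fold differences, and genes with no region in a table are drawn at the edge. Most members lie between the dotted lines at long covered lengths, USP46, USP48, USP16 and UBE2D4 lie above them, and UBE2H, USP4, UBE2G1 and UBE2V1 lie below.

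A list of E2 enzymes, most of which start chains with RING ligases, held 9 genes. They were UBE2D1 to UBE2D4, UBE2E1 to UBE2E3 and UBE2W, which ubiquitinates protein amino termini. UBE2L3, which serves HECT-type and RING-between-RING ligases, was listed beside them. All 9 had a dense region, and 3 had more regions in sgSETD8, 2 fewer and 4 the same number. UBE2D3 covered 19.2 kb in dense sgNT and 42.0 kb in dense sgSETD8, and UBE2D4 0.358 and 12.8 kb. In dense sgNT the UBE2D3 start lay inside a region of 28792 bp that was not assigned to UBE2D3. The bases of that region are not in the 19.2 kb. UBE2D1 covered 1.52 and 0.516 kb, UBE2L3 58.6 and 39.4 kb, and UBE2D2 24.3 and 24.0 kb. By the regions assigned to them, the UBE2D genes thus differed in both directions, and the 2 UBE2D4 regions shared no base with each other.

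A stretch of chromosome 3 was covered by many member regions: there UBE2E2 and UBE2E1 lie in tandem; both encode E2 enzymes with an extended amino terminus. The regions assigned to UBE2E2, UBE2E1 and UBE2E2-AS1 numbered 10 in dense sgNT, 13 in dense sgSETD8, 8 in sparse sgNT and 7 in sparse sgSETD8. They covered 342 and 369 kb in the dense pair and 3.71 and 4.83 kb in the sparse pair. They held 19.1% of the members' summed signal in dense sgNT, 21.9% in dense sgSETD8, 9.33% in sparse sgNT and 13.9% in sparse sgSETD8.

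The best-ranked member region of each dense table lay over UBE2E1. In dense sgNT it spanned chr3:23814786-23894826 (hg38), joined 24 peaks and ranked 169 with a density of 0.864. In dense sgSETD8 it spanned chr3:23805382-23882862, joined 23 peaks and ranked 128 with a density of 0.861. The sgSETD8 region began before the UBE2E1 start and the sgNT region began 8830 bp after it.

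At UBE2E2 the longest regions were also alike. The intronic region that began at chr3:23372947 in dense sgNT was 102959 bp long with 30 peaks, and its dense sgSETD8 counterpart was 103727 bp long with 31 peaks. The first UBE2E2 region was 74731 bp long in dense sgNT and began 3117 bp after the start, and in dense sgSETD8 it was 93665 bp long and included the start. The bases of UBE2E2 that both dense tables covered made 87.5% of the bases that either covered, and those of UBE2E1 71.6%. In the sparse pair UBE2E2 had 4 and 2 regions that shared no base, and UBE2E1 had 3 and 3 regions, of which the one that began at chr3:23829379 in sgNT (402 bp, density 3.30) was overlapped in sgSETD8 by one of 2487 bp (density 1.60, rank 282).

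**Figure D2:**
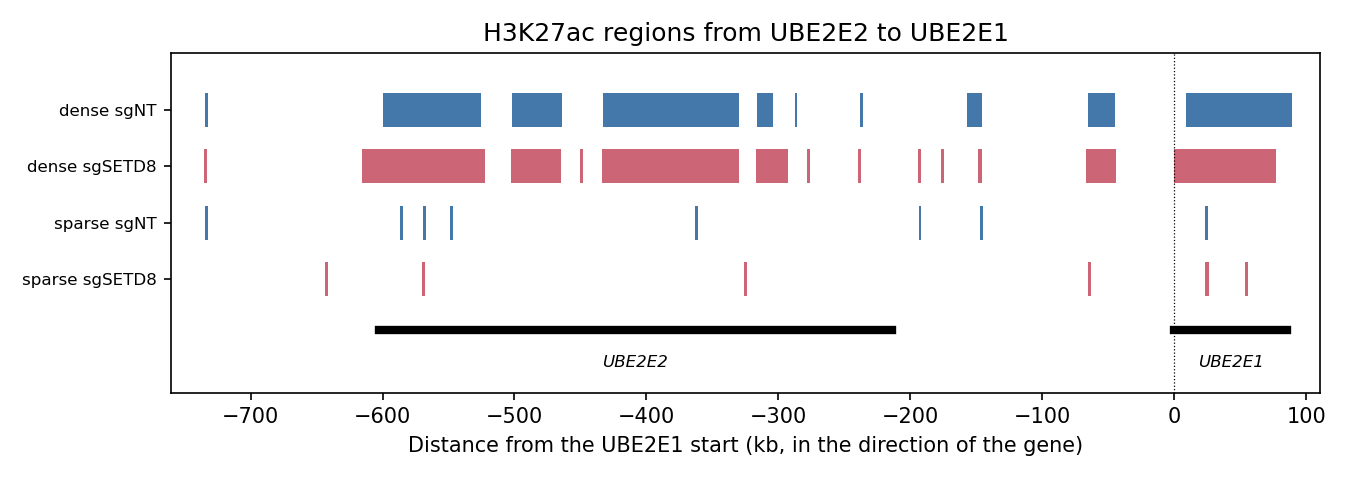
Regions assigned to UBE2E2-AS1, UBE2E2 and UBE2E1 in the 4 tables, by distance from the UBE2E1 start (kb), with the gene spans as black bars; very short regions are drawn at a fixed least width, and 1 sparse sgSETD8 region farther left is not shown. The long dense regions lie at like places in both groups, and the dense sgSETD8 regions over both gene starts begin farther left than those of dense sgNT.

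The E2 enzymes of the chain type read by the proteasome, several of which serve degradation at the endoplasmic reticulum, numbered 6, and all had regions in both dense tables (8 and 9 regions in sum). UBE2J1, a membrane-anchored E2 of the endoplasmic reticulum, was covered over 65.4 and 70.1 kb at ranks 249 and 253, with 93.3% of bases shared. UBE2K, which extends such chains, was covered over 42.2 and 55.9 kb at ranks 319 and 385. UBE2R2, a partner of cullin ligases, was covered over 55.8 and 71.4 kb. UBE2G2, which works with ligases of the endoplasmic reticulum, was covered over 0.524 and 4.85 kb, and UBE2G1 over 29.9 and 6.99 kb, so the 2 UBE2G genes lay on opposite sides.

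UBE2N, the E2 of a chain type used in DNA damage and NF-kappaB signalling, was covered over 31.7 and 36.7 kb at ranks 372 and 405. Its catalytically inactive partners differed: UBE2V2 was covered over 26.2 and 26.6 kb with 98.4% of bases shared, and UBE2V1 over 16.8 and 5.67 kb with 9.40% shared. UBE2F, an E2 of the ubiquitin-like protein NEDD8, was covered over 4.21 and 7.74 kb. UBE2H, which works with the CTLH ligase in red cell maturation, was covered over 38.2 and 14.0 kb by 3 and 2 regions, and its region at the start was present in both (10226 and 12627 bp). Another of its dense sgNT regions, of 17122 bp, was overlapped in dense sgSETD8 by a region not assigned to UBE2H. UBE2Q2 had 1 region of 35.3 kb and 1 of 56.0 kb in the dense pair, each from 12 peaks, and it was one of the members whose sparse regions overlapped each other, at densities of 2.34 and 1.30.

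Of 11 USPs listed for activity on histones, 6 had a dense region, with 9 regions in each table. USP16, which removes ubiquitin from histone H2A, had 1 peak of 469 bp in dense sgNT, inside the gene, and a region of 14898 bp over its start in dense sgSETD8, and the 2 shared no base. USP16 had 1 sparse region of 293 bp, in sgNT, and none in sgSETD8. That sparse sgNT region lay inside the dense sgSETD8 region of 14898 bp, so the 2 pairs placed this stretch in opposite groups. USP46, which works with the WD-repeat protein UAF1, was covered over 4.77 and 33.4 kb. USP22, the deubiquitinase of the SAGA complex, was covered over 9.85 and 8.81 kb, and USP3, which acts on H2A, over 69.1 and 50.7 kb. A USP3 region of 11214 bp in dense sgNT was overlapped in dense sgSETD8 by a region not assigned to USP3. USP36, a nucleolar deubiquitinase, had 1 short region in each dense table, of 538 and 673 bp, with no shared base.

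Of 5 USPs listed for p53 and MDM2, 4 had a dense region. USP7, which stabilises MDM2 and p53, was covered over 8.42 kb by 2 regions in dense sgNT and over 20.0 kb by 1 region in dense sgSETD8. The 2 sgNT regions lay at the 2 ends of about the same stretch, with the USP7 start between them. The sgSETD8 region joined 4 peaks, and its length includes the bases between the 2 sgNT regions. USP10, which deubiquitinates p53, was covered over 35.7 and 55.4 kb in the dense pair, and in the sparse pair it had a region of 12404 bp from 3 peaks in sgNT and none in sgSETD8. USP2 was covered over 10.0 and 9.63 kb, with 96.0% of bases shared.

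USP4, the remaining gene of that list, acts on several signalling proteins and had the best-ranked member region of both sparse tables. It ranked 29 in sparse sgNT, where 8256 bp from chr3:49344873 had a density of 4.51, and 37 in sparse sgSETD8, where 2514 bp from chr3:49344930 had a density of 9.61. Both lay before the gene start and overlapped in position. In the dense pair the same place was inside a region of 28677 bp from 6 peaks in sgNT (rank 428, density 1.42) and a single peak of 8719 bp in sgSETD8 (rank 950, density 2.25). All 4 tables therefore marked the stretch before USP4, and in both pairs the sgSETD8 region was shorter and denser. Its signal was lower in both pairs, at 40744 in sgNT and 19583 in sgSETD8 (dense) and 37219 and 24167 (sparse). Density is signal divided by length. In the dense pair only the sgNT region had peaks joined, while in the sparse pair both regions joined 2 peaks. With length and signal both lower in sgSETD8, the higher density is not read as more acetylation.

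For USP34, a large deubiquitinase linked to Wnt signalling, region counts and covered bases gave opposite orders. It had 6 regions in dense sgNT and 2 in dense sgSETD8, but they covered 11.7 and 14.1 kb and held 6 peaks in each table. Their summed signal was 19144 in sgNT and 7499 in sgSETD8. The 6 sgNT peaks were listed singly, while the sgSETD8 table joined 5 peaks into 1 region of 13164 bp. For USP4 the listing was the other way round, with 2 regions of 29.0 kb in sgNT and 4 of 10.4 kb in sgSETD8, of which 3 were listed singly. At both genes the number of regions depended on whether neighbouring peaks had been joined.

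**Figure D3:**
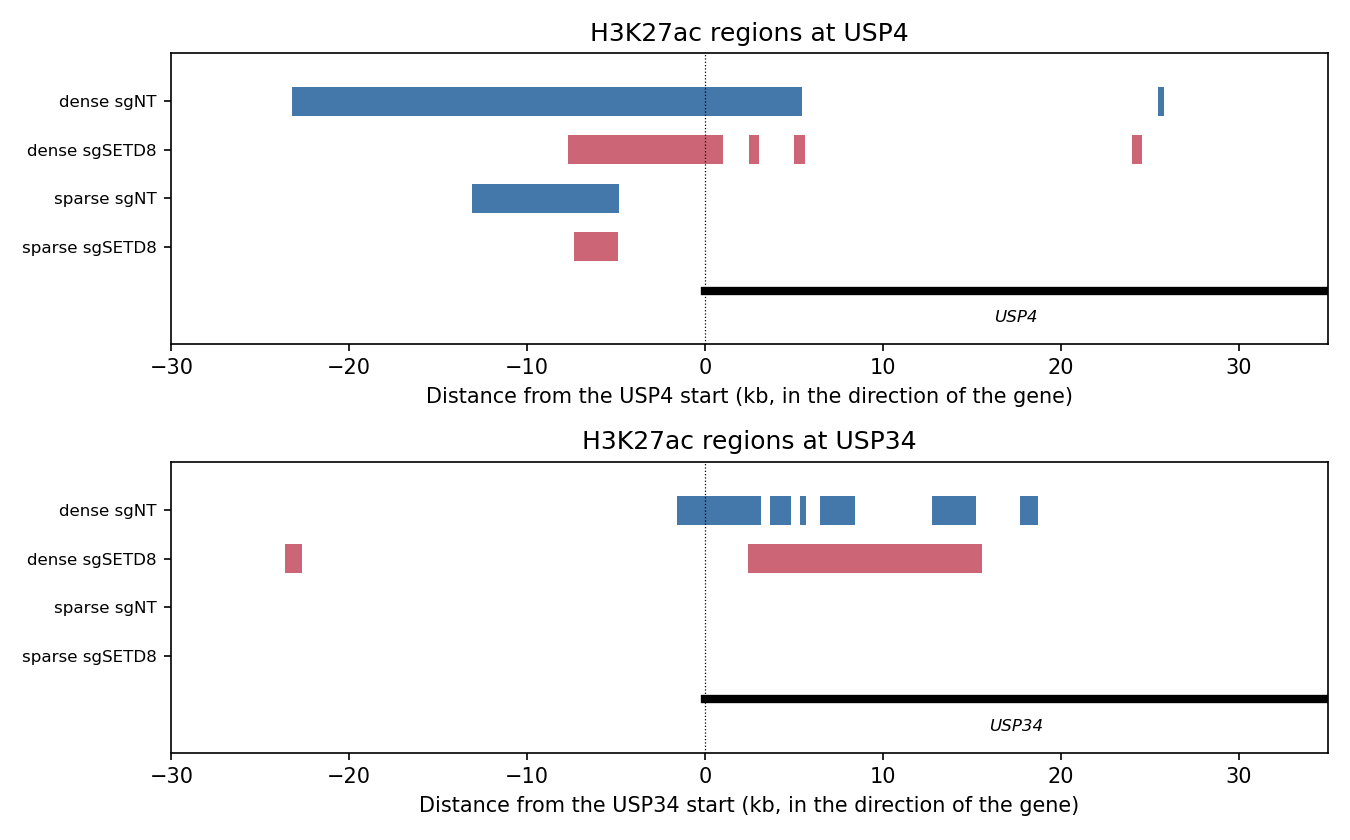
Regions of the 4 tables around USP4 (upper) and USP34 (lower) by distance from each gene start (kb, in the direction of the gene), with the gene span as a black bar. The USP4 upstream stretch was marked in all 4 tables, while the USP34 start was inside a region in dense sgNT only and USP34 had no sparse region.

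Of 5 USPs listed for DNA repair, 3 had a dense region. USP1, which acts on FANCD2 and PCNA, was covered over 2.98 and 11.3 kb. USP48 was covered over 12.7 and 38.6 kb by 1 region in each table. USP47, which acts on DNA polymerase beta, was covered over 19.9 and 27.2 kb and was among the members with regions in all 4 tables. All 3 were covered over more bases in dense sgSETD8, as were 61.1% of all genes with regions in both dense tables.

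Of 4 USPs linked to mitochondria and mitophagy, USP8, USP15 and USP35 had dense regions, with 6 regions in each table, and USP30 had none. USP15, which counteracts the ligase parkin, was covered over 41.4 and 58.9 kb at ranks 477 and 488. USP35 was covered over 39.9 and 18.1 kb, and USP8, which acts at endosomes, over 21.2 and 14.6 kb. Among the 4 of the proteasome, the endoplasmic reticulum and ISG15, USP25 had 3 and 5 regions and was covered over 23.6 and 32.2 kb, and USP18, which removes ISG15, over 0.342 and 0.558 kb.

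Other USPs were covered over long stretches in both dense tables. USP32 had 1 region in each dense table, of 58.7 and 103 kb, at ranks 193 and 203. USP9X, which stabilises the survival protein MCL1, was covered over 41.4 and 41.2 kb with 98.6% of bases shared. USP24 was covered over 38.4 and 48.8 kb with 78.3% shared. Over the 55 members the median of bases shared was 56.7%, with a range from 0 to 98.7%, against 44.4% over 7376 genes.

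Among the best-ranked 1000 regions of each table, members had 19 of their 92 dense sgNT regions (20.7%, against 6.60% of all regions) and 18 of their 98 dense sgSETD8 regions (18.4%, against 5.54%). Among the sparse regions they had 2 of 29 (6.90%, against 19.3% of all) and 3 of 34 (8.82%, against 13.7%), so the order was the opposite of the dense pair. The rank orders regions by summed signal, which grows with length. Introns held the centre of 82.6% and 75.5% of the dense member regions, against 68.3% and 67.5% of all. Since each region is assigned to the nearest start site, some lay outside the gene they are named for: 78 of 92 and 76 of 98 dense regions, and 16 of 29 and 14 of 34 sparse regions, overlapped the span of the member itself.

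Signal could be compared at matched dense regions, those that covered at least 90% of each other. There were 1769 such regions, of which 18 belonged to 17 members, and the log2 ratios of density (sgSETD8 over sgNT) were centred by subtracting their overall median of −0.26. The members' median was −0.05 with an SD of 0.27, close to the SD of 0.24 over all matched regions, and 6 were higher and 12 lower. Past a difference of 0.5, there was 1 member region higher, against 2.49% of all matched regions, and 1 lower, against 1.92%.

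The higher one was at UBE2E2, with densities of 0.291 and 0.355 and a centred difference of 0.55, and the other 2 matched regions of the stretch were also above 0, at 0.36 (UBE2E1) and 0.30 (UBE2E2). The lower one was at UBE2O, an unusually large enzyme with both E2 and E3 activity, with densities of 0.766 and 0.407 and a difference of −0.65. UBE2J2 followed at −0.33, UBE2D2 at −0.24, UBE2K at −0.20 and USP13 at −0.19. USP8 at 0.12 and USP50 at 0.10 were the next highest. Without the UBE2E1 and UBE2E2 stretch the median of the other 15 matched regions was −0.11.

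**Figure D4:**
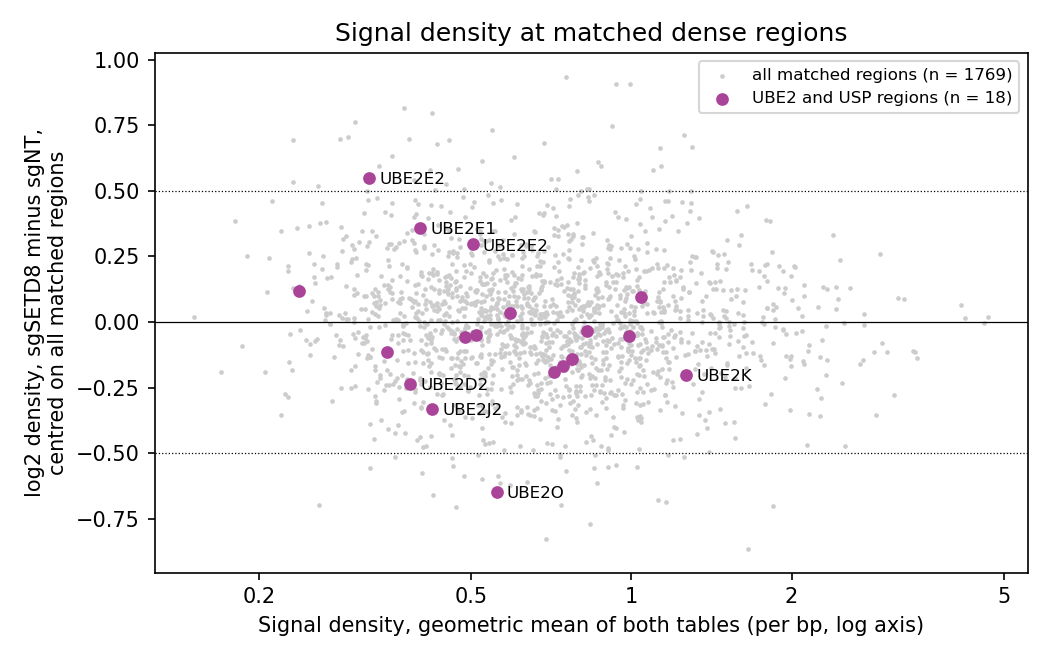
Centred log2 difference in signal density (sgSETD8 minus sgNT) against the geometric mean density of both tables (per bp, log axis) for all 1769 matched dense regions (grey) and the 18 of UBE2 and USP genes (purple); dotted lines mark 0.5. UBE2E2 lies above the upper line, UBE2O below the lower one, and the others lie between the lines.

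The gene starts themselves were compared last. A start counted as inside a region when the whole RefSeq window from 250 bases before to 50 after it lay in one, whichever gene that region was assigned to. Of the 68 UBE2 and USP windows, which include those of 17 genes without any region, 12 (17.6%, against 7.78% of all 15842 windows) were inside a dense sgNT region and 22 (32.4%, against 9.39%) inside a dense sgSETD8 region. A total of 11 were inside in both: UBE2D3, UBE2J1, UBE2K, UBE2N, UBE2Q2, USP2, USP3, USP4, USP15, USP32 and USP47. Another 9 protein-coding members have no window in the RefSeq promoter table and are not in these counts. From the gene spans and the authors' distances to the start, the start bases of UBE2H, USP24 and USP9X lay inside a region in both dense tables, 4 lay inside none, and 2 could not be placed.

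Another 11 starts (16.2%, interval 8.36 to 27.1%) were inside in dense sgSETD8 only, against 3.65% of all windows: UBE2E1, UBE2E2, UBE2R2, USP1, USP6NL, USP7, USP16, USP19, USP25, USP45 and USP46. The USP34 start was the 1 UBE2 or USP window inside in dense sgNT alone, against 2.05% of all. Among genes with a dense region assigned to them, the counts were 11 and 1 of 48 UBE2 and USP windows, against 7.49% and 4.21% of all such windows. In the sparse pair 0 of the 68 windows lay inside a region in either table. Of all windows, 0.107% did in sparse sgNT and 0.0568% in sparse sgSETD8. A count of 0 of 68 allows up to 5.28% (exact interval). Since so few windows of any gene were inside, the second pair gave no value to set beside the dense counts. Member regions were also longer than others in both dense tables, as given above, and the part of length in these counts was not tested.

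The distance from these 11 starts to the nearest dense sgNT region ran from 1912 bp at USP45 to 12268 bp at USP6NL. It was 2015 bp at UBE2R2, 2562 bp at USP25, 2833 bp at USP1, 4174 bp at USP7, 7373 bp at USP16, 9477 bp at USP19 and 9985 bp at USP46. The dense sgSETD8 region at the USP45 start was a single peak of 3266 bp and that at the USP19 start a single peak of 4316 bp, so at these 2 genes the start lay in a called peak. At the other 9 it lay in a stitched region of 3 to 23 peaks, and whether it lay under one of those peaks is not given in the table. At USP34 the dense sgNT region at the start was a single peak of 4752 bp with a density of 2.51, and the nearest dense sgSETD8 region began 2436 bp away.

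**Figure D5:**
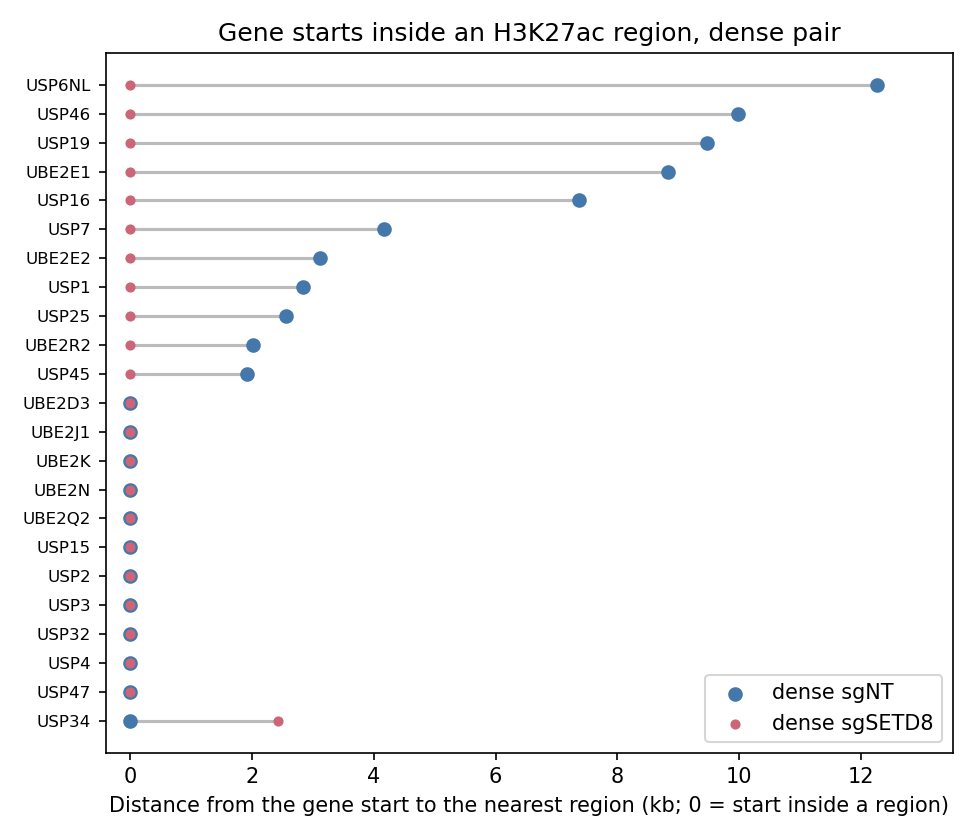
Distance from each member start to the nearest region in dense sgNT (blue) and dense sgSETD8 (red), in kb, for the 23 starts inside a region in at least 1 dense table; 0 means inside. A total of 11 starts are inside in dense sgSETD8 and 1.9 to 12.3 kb from a region in dense sgNT, 11 are inside in both, and USP34 is inside in dense sgNT only.

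The rest of the ubiquitin pathway was counted over 152 genes in 7 lists (E1 enzymes, ubiquitin genes, E2 enzymes with other names, other deubiquitinases, cullins and adaptors, HECT and RING ligases, and proteasome subunits). In the dense pair 103 had a region, 17 of them (16.5%, against 20.5% of all genes) in sgSETD8 only and 7 (6.80%, against 11.4%) in sgNT only, with 157 and 195 regions. The sparse pair listed 50 of the 152, 21 (42.0%, against 45.9%) in sgSETD8 only and 17 (34.0%, against 28.8%) in sgNT only. The largest differences in dense region number were at STAMBPL1, a deubiquitinase of the JAMM type, with 1 and 10 regions, CBLB, a RING ligase of receptor signalling, with 3 and 10, SIAH2, another RING ligase, with 6 and 1, and FBXW7, a substrate receptor of a cullin ligase, with 6 and 3. The covered lengths did not always follow: STAMBPL1 was covered over 31.7 and 18.1 kb, CBLB over 6.36 and 25.3 kb, SIAH2 over 15.6 and 24.7 kb and FBXW7 over 14.7 and 15.7 kb.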

How the data were processed

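H3K27ac CUT&Tag was mapped in 4 Kasumi-1 libraries, 2 per group, with no label saying whether they were separate cultures; titles and antibody labels name H3K27ac, although the series' design text names another mark. Per the submitters' processing notes, reads were handled with cutadapt and Bowtie2 on hg38; their versions, the peak caller and the stitching tool were not stated in the labels. The deposited unit is a signal per stitched region, made by the authors; it equals the listed density times the region's length. The 4 deposited tables were called separately, and which library of its group a table came from was not resolved.

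With Python 3.11.15, pandas 2.3.3 and scipy 1.17.1, regions of a pair were compared by overlap (at least 1 bp), covered bases, and log2 density at regions covering 90% of each other. Promoter windows and gene spans came from RefSeq (GRCh38.p14). The steps were tested on simulated regions. The members and all lists were chosen with earlier results of these data known. Named genes were those in at least 3 tables, in 1 group only, with the most regions, the best ranks, or the highest and lowest density differences; genes at starts and the covered lengths were added after their values were seen. Alternatives are in the closing section. No read depth was available, so precision beyond counting error is unknown. A count of marker genes of other cell types is not reported here.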

Additional observations from a re-analysis of the deposited data

How the results depend on the processing

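No paired analysis was possible because the labels give the libraries no shared replicate numbers; the pairs of tables compared here come from the style of the identifiers, and no test was run over them. Of the alternatives tried, 93 values stayed within the interval or SD of the value reported (for counts, within 1.5 times) and 11 did not. Some of the 93 still shifted: the dense sgNT share without counterpart was 7.69% with regions of at least 500 bp, and the median density difference was −0.01 at 50% mutual cover. With only the 5000 best-ranked regions per table, 5 members were in dense sgNT only, 4 and 3 of 34 had over 2-fold more and fewer covered bases, and the mean share of regions in sgSETD8 was 50.3%. With regions of at least 500 bp, 8 members were in dense sgSETD8 only, and in the sparse pair 5 were in sgSETD8 only and 7 in sgNT only, the opposite order to 15 and 9; the sparse share was 44.4% and the mean share 49.4%. With regions centred within 50000 bp of the start site, 9 were in sparse sgSETD8 only and the mean share was 49.4%. Where a counterpart had to cover 50% of a region, 22.8% of dense sgNT and 40.8% of dense sgSETD8 member regions had none. The cause of these moves was not tested, beyond the fewer regions that each of the first 3 settings leaves and the stricter overlap of the last. Leaving out 1 pair at a time gave a mean share of 51.6 to 54.0%. The counts of starts inside a region in 1 dense table, 11 and 1, were the same with regions joined across short gaps, with regions of at least 500 bp and with the start base alone; without USP6NL they were 10 and 1, and without UBE2E1 and UBE2E2 9 and 1. These leave-out and start-base settings, the 500 bp and joining settings for the starts, and the 5000 best-ranked regions for starts and covered bases were chosen after seeing the data. Depth is unknown and limits every absence of a region.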
